A study of Mus musculus with 6 samples.

Results

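Complement is a cascade of plasma proteins of innate immunity, made by the liver and also locally in tissues, and 9 of its genes were followed here in RNA recovered from mouse lung pericytes. They were C1qa, C1qb and C1qc, which encode the chains of the recognition molecule C1q, C1ra and C1s1, which encode its partner proteases, Serping1, which encodes the C1 inhibitor, and C3, C4b and Cfb, which encode the substrates from which the C3 convertases are built. These 9 genes were picked by name, through the Ensembl identifiers that carry these symbols in GENCODE M21, out of 21603 genes in each table. The C1q chains were set apart from the other 6 genes because C1q in tissue is mainly a product of macrophages, whereas the C1 proteases, the C1 inhibitor and C3 are also made by mesenchymal cells.

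The samples were lungs of C57BL/6 mice at postnatal day 8 (P8). All carried the Pdgfrb(BAC)-CreERT2 transgene, in which a Pdgfrb promoter drives a tamoxifen-inducible Cre, and a Cre-dependent Rpl22HA allele that puts an HA tag on a ribosomal protein. All had received tamoxifen in the first days after birth. Controls (n = 3) carried, for Yap1 and for Wwtr1, a loxP-flanked allele beside a wild-type one (genotype given as Yap1+/-;Wwtr1+/-), and Yap1,Wwtr1 iPCKO mice (n = 3) carried loxP-flanked alleles only (given as Yap1-/-;Wwtr1-/-). The controls had thus lost a copy of both genes too, and mice were grouped without regard to sex. Yap1 and Wwtr1 encode the transcriptional co-activators YAP1 and TAZ, which act through TEAD proteins. Ribosomes were precipitated from lung lysate with an anti-HA antibody, so a transcript reaches the sequencing library from recombined cells and, at some background, from any other cell of the lysate. RNA of the input lysate was not analysed here, so enrichment over whole lung is not known for any of the 9 genes.

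C1q binds immune complexes, dying cells or debris, and activates C1r, which activates C1s. C1s cleaves C4 and C2 to form the classical C3 convertase, and the C1 inhibitor inactivates C1r and C1s. C3 is the hub on which the classical, lectin and alternative routes meet, and factor B, the product of Cfb, provides the protease of the alternative C3 convertase, which amplifies the response. In many tissues C3, C4b, Cfb and Serping1 are induced by inflammatory cytokines and interferons.

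Values are RPKM, read numbers divided by exon length and by library depth, so levels can be set side by side between genes. Fold changes are differences of the mean log2(RPKM + 0.1), iPCKO minus control, from limma fitted to the 12034 genes that reached 1 RPKM in 3 or more of the 6 samples. A gene was called where its Benjamini-Hochberg adjusted p was below 0.01 and its absolute log2 fold change above 0.5. Library depth, inferred from the spacing of low RPKM values, was 17.4 to 34.7 M reads in controls and 14.2 to 39.6 M in iPCKO samples. The deepest library was iPCKO 2 and the shallowest iPCKO 3. The check of the labels gave a Yap1 level of 11.5 to 13.2 RPKM in controls and 5.25 to 5.83 RPKM in iPCKO samples, while Wwtr1 did not separate the groups (adjusted p = 0.822, limma). The study reported that both proteins were strongly reduced in whole lung lysates of double mutants at a later age, a measure of protein and not of RNA. Pericyte markers were abundant in every library, with 1193 to 1666 RPKM of Pdgfrb. The fibroblast marker Col1a1 (294.5 to 581.6 RPKM) and surfactant and club cell transcripts such as Sftpc (338 to 468 RPKM) were also present in all 6.

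The promoters of the genes that moved together are shown here, as RefSeq windows of 250 bases before and 50 bases after the start of the gene on GRCm38.p6. A window was at hand for 5 of the 9 genes, C1qb, C1qc, C1ra, C1s1 and C3. Capitals mark matches to short core motifs searched on both strands. These were GGAATG (TEAD), GAGGAA (PU.1, a macrophage and granulocyte factor), TTGCNNAA (C/EBP), TTCNNNGAA (STAT), TGANTCA (AP-1) and cores named NF-kB and IRF. The pair on chromosome 6 that was lower in iPCKO samples comes first.
C1ra, chr6:124512371-124512670, + strand: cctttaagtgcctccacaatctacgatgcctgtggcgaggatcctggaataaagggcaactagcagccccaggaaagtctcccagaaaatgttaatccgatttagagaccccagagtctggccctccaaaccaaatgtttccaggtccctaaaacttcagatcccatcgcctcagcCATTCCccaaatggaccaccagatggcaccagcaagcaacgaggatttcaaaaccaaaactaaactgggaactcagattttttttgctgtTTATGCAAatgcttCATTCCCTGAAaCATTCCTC
C1s1, chr6:124542310-124542609, - strand: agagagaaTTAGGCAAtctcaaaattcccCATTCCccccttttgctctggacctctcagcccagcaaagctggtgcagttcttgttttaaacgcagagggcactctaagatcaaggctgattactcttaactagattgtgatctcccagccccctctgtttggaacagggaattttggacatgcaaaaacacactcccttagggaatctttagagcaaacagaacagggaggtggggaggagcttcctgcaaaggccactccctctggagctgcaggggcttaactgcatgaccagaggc

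The C1ra window held the TEAD core 3 times, at -74, 31 and 43 from the RefSeq start, where negative positions lie upstream. The last of these overlapped the PU.1 core at 45, and the match at 31 overlapped the STAT core at 33. A C/EBP core stood at 17. The C1s1 window held a TEAD core at -221 and a C/EBP core at -242, and a second RefSeq start of C1s1, 38 bases downstream, had none of the cores in its window. Over all 32817 promoter windows, 14.7% held at least 1 TEAD core and 0.128% held 3 or more, a count made after the C1ra window had been seen. The RefSeq start of C1ra lies 216 bases downstream of the GENCODE start. These are matches of letters, and binding was not measured.

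Of the C1q cluster on chromosome 4, windows of C1qb and C1qc are shown because the 3 chains are neighbours whose levels varied together over the samples.
C1qb, chr4:136886151-136886450, - strand: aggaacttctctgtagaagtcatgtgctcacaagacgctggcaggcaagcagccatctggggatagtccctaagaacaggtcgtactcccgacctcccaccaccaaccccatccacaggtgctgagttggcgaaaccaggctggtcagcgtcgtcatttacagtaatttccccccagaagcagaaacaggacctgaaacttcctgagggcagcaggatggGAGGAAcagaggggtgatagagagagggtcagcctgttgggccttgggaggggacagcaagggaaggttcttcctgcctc
C1qc, chr4:136892865-136893164, - strand: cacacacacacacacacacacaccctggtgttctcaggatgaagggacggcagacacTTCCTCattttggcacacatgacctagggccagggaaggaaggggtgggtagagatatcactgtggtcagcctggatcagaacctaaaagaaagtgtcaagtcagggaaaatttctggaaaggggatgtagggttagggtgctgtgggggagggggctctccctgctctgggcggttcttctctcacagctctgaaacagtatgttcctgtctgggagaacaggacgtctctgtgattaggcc

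Both windows held a single PU.1 core, at -30 in C1qb and at -193 in C1qc, and no other core. The PU.1 core is common, in 28.3% of all windows. The window of C3 (chr17:57228087-57228386, - strand) held a single C/EBP core at -45, a core found in 10.8% of windows. For the remaining cores the shares were 8.29% (STAT), 7.81% (AP-1), 3.43% (IRF) and 1.63% (NF-kB), and neither the NF-kB, the IRF nor the AP-1 core stood in any of the windows of the 5 genes.

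In the precipitated RNA of controls the 9 genes spanned a wide range of levels. Serping1 was highest at 88.9 ± 3.82 RPKM (mean ± SD, n = 3), followed by C1s1 at 64.6 ± 5.97 and C1ra at 14.9 ± 1.32. C3 followed at 4.70 ± 0.350 RPKM, and C1qa, C4b, C1qb and C1qc lay between 1.93 and 0.801 RPKM. Cfb was lowest at 0.105 ± 0.0352 RPKM. No pair of neighbours in this order overlapped among the controls. In iPCKO samples C3 (19.9 ± 11.0 RPKM) stood above C1ra (7.52 ± 1.20), and the ranges of C4b, C1qa, C1qb and C1qc overlapped, so their order there is not resolved.

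**Figure D1:**
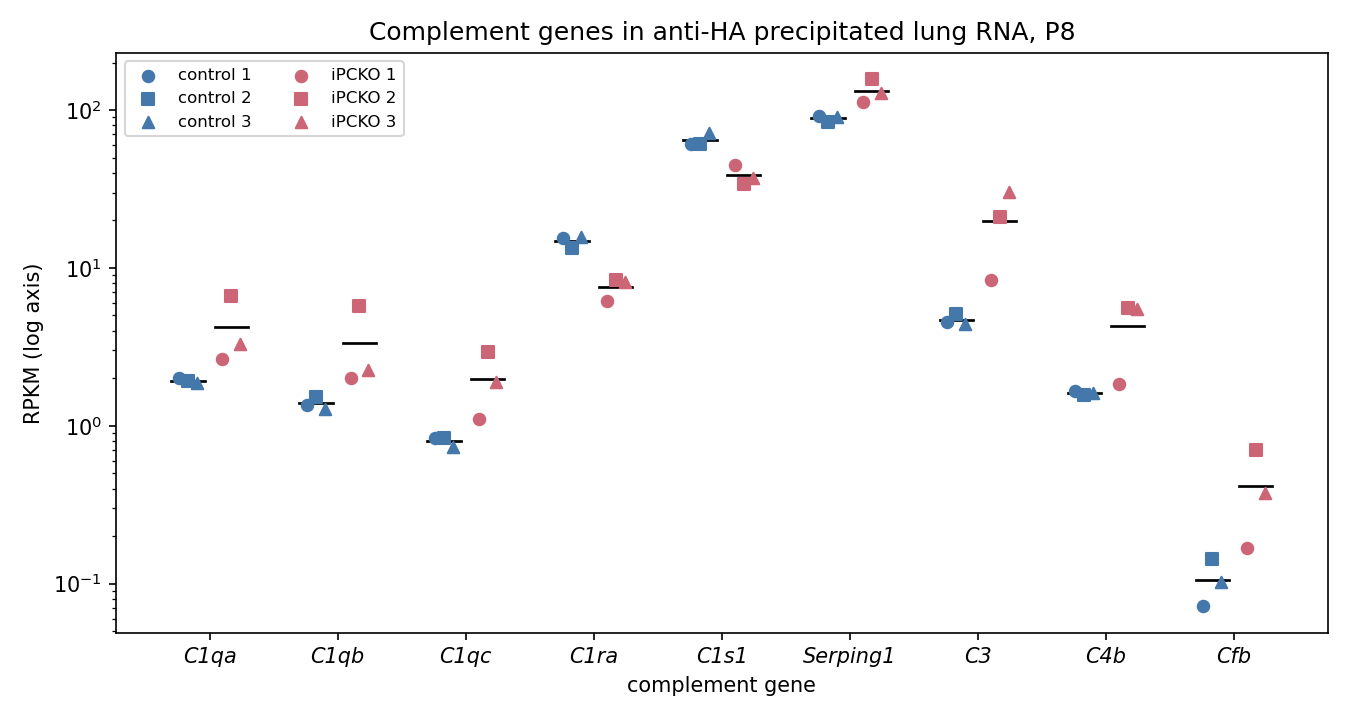
RPKM (log axis) of the 9 complement genes in 3 control samples (blue) and 3 iPCKO samples (red), with the shape giving the replicate number and the black line the group mean. For C1ra and C1s1 all red points lay below all blue ones, the other 7 genes lay higher, and the iPCKO spread was widest for C3, C4b, Cfb and the C1q chains.

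The groups did not overlap for any of the 9 genes. All 3 iPCKO samples lay above all 3 controls for 7 genes and below them for 2, C1ra and C1s1. Among all genes tested, 18.3% were placed above in this way and 17.1% below. Of the 8 genes tested, 2 passed both thresholds and both were lower, where 6.79% of all genes tested passed, 2.68% in the lower and 4.11% in the higher direction. At an adjusted p below 0.05 alone, 15.2% of all genes tested passed, and among the 9 these were C1ra, C1s1, Serping1, C3 and C1qc. C1qc reached 1 RPKM in iPCKO samples only and so entered the test through the group where it is high, and no support is read from a count that holds it. The gene left untested was Cfb, which reached 1 RPKM in no sample. The 6 tested genes with higher values did not pass both thresholds, and they are described by their differences and errors.

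The proteases C1ra and C1s1 fell. C1ra (ENSMUSG00000055172, chr6:124512405-124523443) encodes C1r, the protease that C1q activates first. It stood at 15.5, 13.4 and 15.8 RPKM in controls 1 to 3 and at 6.15, 8.34 and 8.08 RPKM in iPCKO 1 to 3. The highest iPCKO sample was thus well below the lowest control, and iPCKO 1 was the lowest. The iPCKO mean was 50.6% of the control mean, with a log2 fold change of -0.98 (SE 0.13, 95% interval -1.28 to -0.68, limma adjusted p = 0.00172). As this is bulk RNA, fewer cells of a type and less RNA per cell cannot be told apart, here and in all that follows.

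C1s1 (ENSMUSG00000038521, chr6:124530345-124542359) encodes C1s, the protease that cleaves C4 and C2. Its levels were 61.1, 61.1 and 71.5 RPKM in controls and 44.7, 33.8 and 37.2 RPKM in iPCKO samples. Again no iPCKO sample reached a control, but here iPCKO 1 was the highest of its group. The mean fell to 59.7% of the control mean, a log2 fold change of -0.75 (SE 0.12, 95% interval -1.03 to -0.47, limma adjusted p = 0.00447). The ratio of C1s1 to C1ra RPKM was 3.96 to 4.58 in controls and 7.27, 4.06 and 4.60 in iPCKO samples, so the groups overlapped and iPCKO 1 stood apart. The call of C1ra was lost without control 3 (adjusted p = 0.0108) and held in the other 5 fits that left out a sample. That of C1s1 was lost in 5 of these 6 fits, with adjusted p up to 0.0225, and held only without iPCKO 1 (0.00152), while the direction of both genes held in all 6.

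The pair are neighbours in 29955 bases of chromosome 6, with 6902 bases between them. C1rl, a C1r-like gene 1762 bases from C1ra on the other side, did not follow. It stood at 1.5, 1.32 and 1.88 RPKM in controls and 1.49, 1.97 and 2.31 RPKM in iPCKO samples, overlapping groups with a log2 fold change of 0.27 (95% interval -0.18 to 0.73, limma adjusted p = 0.400). The paralogs C1rb and C1s2, which lie within 100 kb of C1s1, were at most 0.0209 and 0.129 RPKM in any sample. Part of the C1ra signal could not be assigned from sequence alone, since 42.4% of the 75-base stretches of its transcript also occur in C1rb or Gm18840, and 14.7% of those of C1s1 occur in C1s2. Gm16567, an antisense gene that overlaps C1s1, was not analysed here.

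Serping1 (ENSMUSG00000023224, chr2:84765387-84775444), whose product inactivates C1r and C1s, was the most abundant complement gene of the 9 and moved the other way. Controls stood at 91.6, 84.6 and 90.6 RPKM and iPCKO samples at 111.7, 156.5 and 128.9 RPKM. All iPCKO samples were above all controls, with iPCKO 2 highest. The log2 fold change was 0.56 (SE 0.13, 95% interval 0.27 to 0.86) with a limma adjusted p of 0.0213, above the threshold of 0.01. It passed in 1 of the 6 fits leaving out a sample, that without iPCKO 1 (limma adjusted p = 0.00606), and adjusted p reached 0.0755 in the others. No 75-base stretch of its transcript occurs in another annotated gene. Of the tested genes within 100 kb of it, only Ube2l6, an interferon-inducible conjugating enzyme, was called, at 44.1 against 22.1 RPKM (log2 fold change 1.0, limma adjusted p = 0.000651), whereas the differences of the others ran from -0.58 (Gm19426, adjusted p = 0.02) to 1.25 (Rtn4rl2, adjusted p = 0.0154).

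Set against each other within a sample, the inhibitor and its target proteases separated the groups clearly. The RPKM of Serping1 divided by that of C1ra plus C1s1 was 1.20, 1.14 and 1.04 in controls and 2.20, 3.71 and 2.85 in iPCKO samples. Transcripts of the inhibitor and of the proteases were thus near parity in controls and 2.92 ± 0.761 to 1 in iPCKO samples. The ratio follows from the 3 values above and is no separate evidence. Serping1 made up 48.2 to 51.3% of the summed RPKM of the 9 genes in controls and 59.2 to 64.9% in iPCKO samples, and C1s1 fell from 34.2 to 38.0% to 14.0 to 25.0%. The sum itself overlapped between the groups, at 170.1 to 187.9 RPKM in controls and 178.7 to 241.3 RPKM in iPCKO samples.

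**Figure D2:**
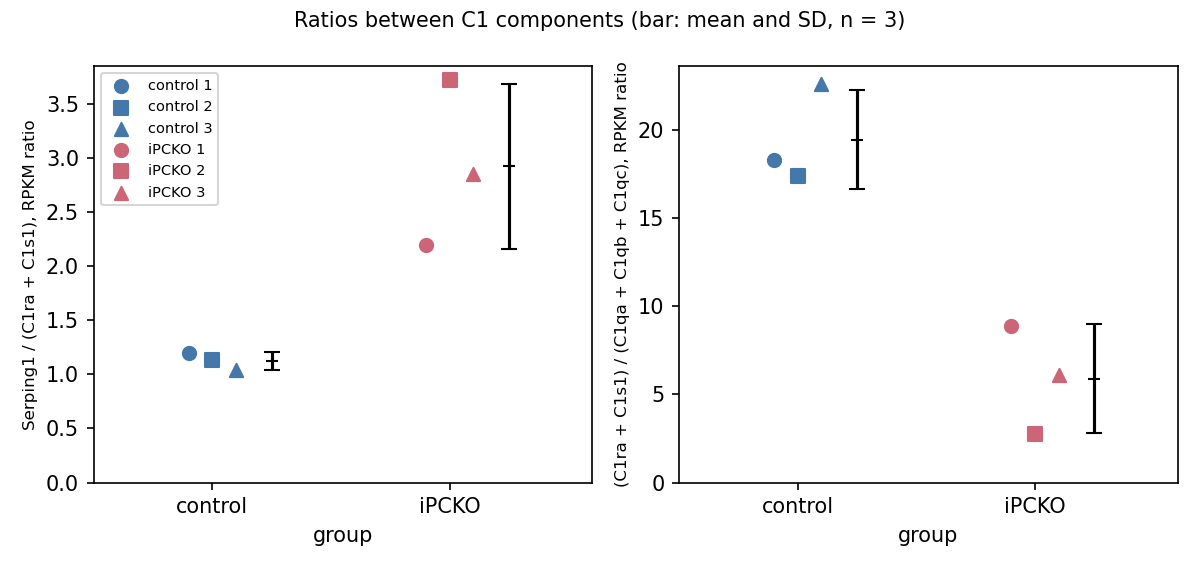
RPKM ratios in each sample, with Serping1 over C1ra plus C1s1 on the left and C1ra plus C1s1 over the 3 C1q chains on the right (points: samples; bar: mean ± SD, n = 3 per group, both axes from 0). On the left the iPCKO samples lay between 2.20 and 3.71 and the controls between 1.04 and 1.20, and on the right the iPCKO samples lay between 2.74 and 8.87 and the controls between 17.4 and 22.6.

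The C3 convertase components had higher values in iPCKO samples, but unevenly so, and none passed the thresholds. C3 (ENSMUSG00000024164, chr17:57203970-57228136) encodes the central protein that every activation route cleaves. It was flat in controls at 4.56, 5.10 and 4.44 RPKM and spread in iPCKO samples at 8.44, 20.9 and 30.3 RPKM. These values were 1.80, 4.46 and 6.45 times the control mean, all above every control. The log2 fold change of 1.88 was the largest of the tested 8 in size, with an SE of 0.38 (95% interval 1.01 to 2.75) against a median SE of 0.118 over all genes tested, and the limma adjusted p of 0.0125 missed the threshold. Without iPCKO 1, the least raised sample, the log2 fold change was 2.40 and the limma adjusted p 8.23e-05. This was the only 1 of the 6 fits leaving out a sample in which C3 passed, and adjusted p reached 0.0461 in the others.

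C4b (ENSMUSG00000073418, chr17:34728380-34743882) encodes C4, the substrate of C1s. Controls stood at 1.65, 1.56 and 1.61 RPKM, and iPCKO samples at 1.82, 5.61 and 5.51 RPKM. Here iPCKO 1 was only just above the controls, at 1.14 times their mean, and the other two were at 3.49 and 3.43 times it. The log2 fold change was 1.21 (SE 0.37, 95% interval 0.37 to 2.06, limma adjusted p = 0.0625), and without iPCKO 1 it was 1.73 (adjusted p = 0.000109). C4b passed in this 1 of the 6 fits leaving out a sample, and adjusted p reached 0.184 in the others. The value is uncertain in another way, since 23.5% of the 75-base stretches of C4b also occur in its near-identical neighbour C4a, which was not analysed here.

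Cfb (ENSMUSG00000090231, chr17:34856374-34862518) was at 0.0718, 0.142 and 0.102 RPKM in controls and 0.167, 0.706 and 0.373 RPKM in iPCKO samples. At the depths given above this is about 4 to 10 reads in each control and 10, 79 and 15 in iPCKO 1 to 3. All iPCKO samples were above all controls, iPCKO 2 by most, yet the gene stayed under the filter of 1 RPKM. Fitted with no filter on 17678 genes, its log2 fold change was 1.20 (SE 0.38, limma adjusted p = 0.0899). Gm20547, an annotated gene on the same strand that overlaps Cfb and shares 81.2% of its 75-base stretches, was listed at 0 in all 6 samples. C2, which encodes the classical counterpart of factor B and ends 86 bases from Cfb on the same strand, overlapped between the groups at 0.498 to 0.859 RPKM in controls and 0.5002 to 0.808 RPKM in iPCKO samples. C4b and Cfb lie in the same 134139 bases of chromosome 17, and none of the tested genes between or beside them within 100 kb passed the thresholds.

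C3 and C4b moved together over the 6 samples (Pearson r = 0.966 on log2 values, with the group difference part of it), and the ratio of C3 to C4b was 2.76 to 3.27 in controls and 4.63, 3.73 and 5.51 in iPCKO samples. Replicate numbers carry no order, but C3 ranked the iPCKO samples as neutrophil markers and some genes of other kinds did, as given below.

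The C1q chains had higher values in iPCKO samples, by 0.97 to 1.10 on the log2 scale, with 1 sample far above the rest and no chain past the thresholds. C1qa (ENSMUSG00000036887, chr4:136895917-136898803) encodes the A chain. It stood at 2.00, 1.93 and 1.86 RPKM in controls and at 2.63, 6.67 and 3.31 RPKM in iPCKO samples. C1qb (ENSMUSG00000036905, chr4:136880129-136886187), the B chain, stood at 1.35, 1.53 and 1.27 RPKM and at 2.00, 5.77 and 2.26 RPKM. Both genes had every iPCKO sample above every control and iPCKO 2 at 3.46 and 4.17 times the control mean, against at most 1.71 times in iPCKO 1 and 3.

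C1qc (ENSMUSG00000036896, chr4:136889804-136893065), the C chain, stood at 0.841, 0.832 and 0.731 RPKM in controls and at 1.10, 2.91 and 1.89 RPKM in iPCKO samples. Its pattern was that of the other chains with iPCKO 3 somewhat higher. The log2 fold changes were 0.97 for C1qa (95% interval 0.31 to 1.63, limma adjusted p = 0.0563), 1.05 for C1qb (0.27 to 1.84, adjusted p = 0.0769) and 1.10 for C1qc (0.41 to 1.79, adjusted p = 0.0431). In fits that left out 1 sample, C1qc passed without iPCKO 1 (adjusted p = 0.0037), and without any other sample none of the chains did. These levels rest on few reads, about 28 to 67 per chain in each control and 35 to 58 in iPCKO 1 and 3, but on 223 to 275 per chain in iPCKO 2, the deepest library.

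C1q is assembled from equal numbers of the 3 chains, whose genes stand in 18675 bases of chromosome 4, all on the minus strand. C1qa over C1qb was 1.26 to 1.48 in controls and 1.16 to 1.47 in iPCKO samples, and C1qa over C1qc was 2.32 to 2.54 and 1.75 to 2.39. Both ratios overlapped between the groups. Over the 6 samples the log2 values of the chains correlated with r = 0.948 to 0.991, again with the group difference part of it. The nearest other tested genes, Ephb2, a receptor tyrosine kinase, and Zbtb40, were not called (log2 fold changes of 0.57 and -0.19, limma adjusted p = 0.0869 and 0.552). No 75-base stretch of the C1q chains or of C3 occurs in another annotated transcript.

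Set against macrophage markers, C1q did not separate the groups. The mean log2(RPKM + 0.1) of 12 macrophage markers was -0.15 to 0.41 in controls and 0.73 to 1.23 in iPCKO samples, a difference of 0.89 with iPCKO 2 highest (exact two-sided permutation p = 0.1, the smallest that 3 against 3 samples allow; 0.167 after adjustment over 10 marker lists). Of the 12, 10 had all iPCKO samples above all controls, and the summed level was 19.0 to 29.99 RPKM in controls and 33.1 to 53.2 RPKM in iPCKO samples. The difference between the C1q mean and the macrophage mean on the log2 scale was 0.66, 0.14 and 0.26 in controls and 0.20, 1.07 and 0.24 in iPCKO samples, so the groups overlapped. C1qa was 17.8 to 36.1% of the RPKM of Csf1r, the macrophage growth factor receptor, in controls and 19.4 to 31.4% in iPCKO samples, and C1qb and C1qc overlapped in the same way. The part of macrophage RNA in the C1q values was not tested.

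The macrophage markers themselves were low beside those of pericytes. Csf1r stood at 5.55, 10.8 and 6.70 RPKM in controls and 11.9, 21.3 and 17.1 RPKM in iPCKO samples (log2 fold change 1.13, limma adjusted p = 0.0237). Marco, a scavenger receptor of alveolar macrophages, was the only called gene of the 7 tested on the list, at 0.281 to 0.624 against 1.17 to 2.35 RPKM (log2 fold change 1.68, adjusted p = 0.00952), but it passed the filter through iPCKO samples only, and with no filter it was not called (adjusted p = 0.0161). Adgre1, Cd68, Mrc1 and Cx3cr1 were at 1 RPKM or more in all 6 samples and had all iPCKO samples above all controls without being called, and Mertk overlapped. Cd163, Ms4a7 and Siglecf, also on the list, were under 1 RPKM in all 6 samples, as was Vsig4, the complement receptor of resident macrophages, which was at most 0.0194 RPKM.

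**Figure D3:**
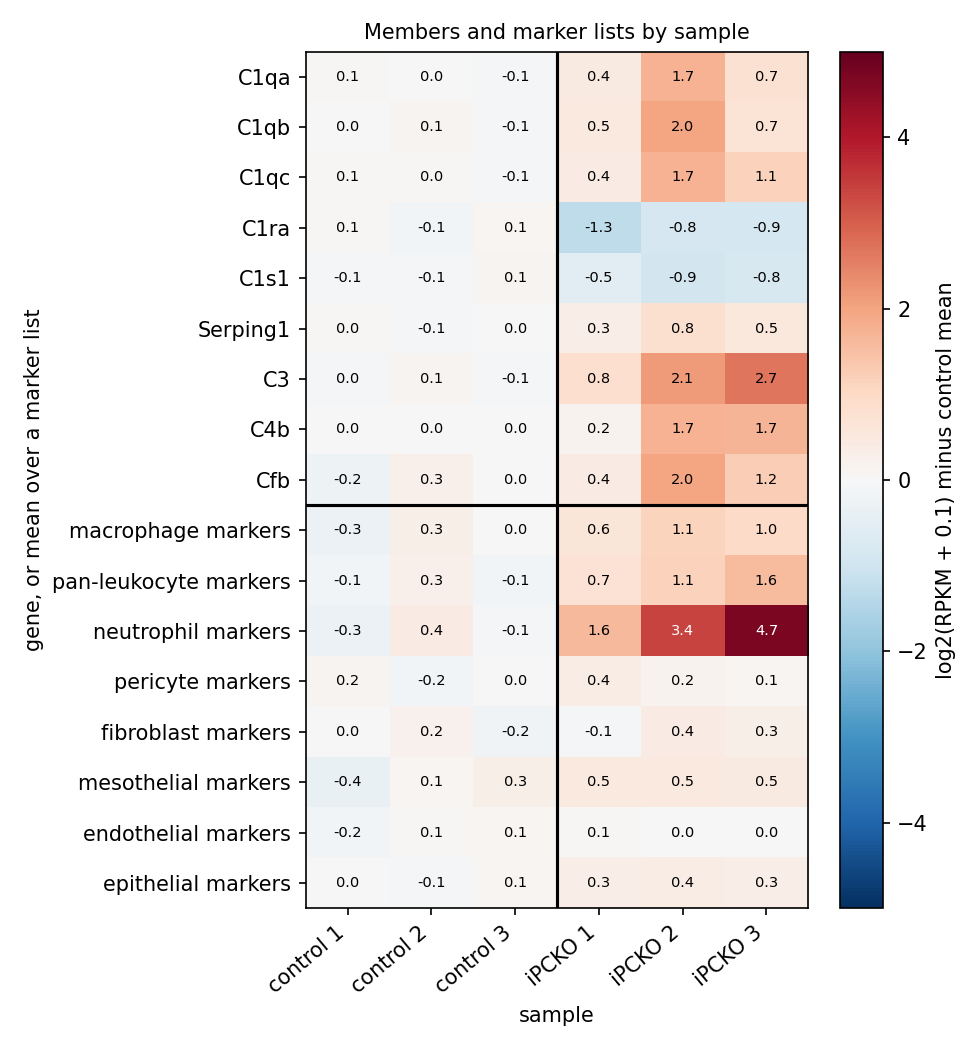
Each cell gives log2(RPKM + 0.1) in a sample minus the control mean, for the 9 complement genes (above the line) and for the mean over 8 lists of cell type markers (below it), with controls left of the vertical line. C1ra and C1s1 were negative in all 3 iPCKO samples, C1q was highest in iPCKO 2, and C3 followed the order of the neutrophil markers, whose mean differed by 3.24 between the groups. Few orders exist for 3 samples, and genes of other kinds held this order too.

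The C1q chains and the other 6 genes were compared as the mean log2(RPKM + 0.1) of each group in each sample. The C1q mean was 0.39 to 0.54 in controls and 0.93, 2.30 and 1.33 in iPCKO samples. The mean of the other 6, in which C1ra and C1s1 fell and the remaining genes were higher, was 2.82 to 2.88 in controls and 2.85, 3.67 and 3.60 in iPCKO samples, so here the groups overlapped. The difference between both means was -2.31, -2.32 and -2.50 in controls and -1.92, -1.37 and -2.27 in iPCKO samples, higher by 0.52 on average, and iPCKO 3 was hardly above control 1. Over all alternatives this difference was between 0.28 and 0.73. C1ra plus C1s1 divided by the 3 C1q chains was 17.4 to 22.6 in controls and 8.87, 2.74 and 6.07 in iPCKO samples, without overlap, so transcripts for the proteases outnumbered those for C1q per length in every sample but by less in the mutants. The other 6 genes were no single block, since the proteases lay below the controls and Serping1, C3, C4b and Cfb above them.

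Markers of other cell types also moved with the groups. The neutrophil list differed most, with a mean of 1.97 to 2.70 in controls and 3.88, 5.66 and 7.002 in iPCKO samples on the log2 scale, a summed level of 86.2 to 128.2 against 444.4 to 4894 RPKM, and 9 of 9 genes above the controls. Pan-leukocyte markers were higher by 1.15 (7 of 8 genes above), smooth muscle markers by 0.52 (2 of 5 above), mesothelial markers by 0.47 (2 of 5 above) and epithelial markers by 0.35 (5 of 7 above), each list mean without overlap, while pericyte (0.22), fibroblast (0.20) and endothelial markers (0.03) overlapped between the groups. For the neutrophil list and each other list without overlap the exact permutation p was 0.1, and 0.167 after adjustment. In the smooth muscle list Cnn1 (log2 fold change 1.11) and Actg2 (1.59) were called, whereas Myh11 (-0.09), Acta2 (0.05) and Des (-0.04) overlapped. C3, which ranked iPCKO 1, 2 and 3 in the same order as the neutrophil list, was also the gene with the largest difference of the 9, and the part of leukocyte RNA in it was not tested. Few orders exist for 3 samples, and Hc (16.1, 19.0 and 25.7 RPKM) and Sftpb (72.3, 84.5 and 89.6 RPKM) also had this order. None of the 10 list means had all iPCKO samples below all controls, but single genes did, and the part of any cell type in the fall of C1ra and C1s1 was not tested. Within the fibroblast list 2 of 9 genes lay above all controls and 1 below, and within the endothelial list 1 of 6 above and 1 below. Within the pericyte list 4 of 8 genes had all iPCKO samples above all controls and 2 below. Of these, Cspg4 (log2 fold change 1.06), Kcnj8 (1.03) and Abcc9 (1.15) rose and Notch3 fell (-0.94), with limma adjusted p = 0.000254 to 0.00838, whereas Pdgfrb overlapped. The call of Kcnj8 held in 1 of 6 fits that left out a sample (limma adjusted p up to 0.0359), those of Cspg4, Abcc9 and Notch3 in 6 of 6. Transcripts of hepatocytes, the main source of plasma complement, were near 0, with a summed level of the 4 markers of at most 0.923 RPKM.

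The remaining complement genes place these 9 in the cascade. Of 48 further genes, 47 had values and 22 were tested, of which 4 rose, 1 fell and 17 did not pass. Their median log2 fold change was 0.28, against 0.00 over all genes tested, and the share called beside the background of 6.79% rests on 5 genes, of which Colec11 and C5ar1 passed the filter through 1 group only. No list test was made.

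Among initiators of the lectin route, Colec11 fell. It encodes collectin-11, a soluble lectin that binds sugars on microbes and damaged cells. Its levels were 5.06, 3.65 and 3.13 RPKM in controls and 0.888, 0.839 and 0.355 RPKM in iPCKO samples, without overlap (log2 fold change -2.40, SE 0.31, limma adjusted p = 0.00145). It passed the filter through the controls only, where it is high, and its adjusted p with no filter was 0.00396. Its partner Colec10 and the lectin pathway protease Masp1, named after their values were seen, were under the filter and also had all iPCKO samples below all controls. Colec10 stood at 0.875 to 1.81 RPKM in controls and 0.176 to 0.306 RPKM in iPCKO samples, and Masp1 at 0.834 to 1.14 and 0.127 to 0.449 RPKM. In the fit with no filter Colec10 passed (log2 fold change -2.05, limma adjusted p = 0.00422) and Masp1 did not (-1.72, adjusted p = 0.0165). The membrane lectin Colec12, the abundant gene of this group at 24.9 to 34.1 RPKM, was not called (0.30, adjusted p = 0.0744). Fcnb, also under the filter, went the other way, at 0.0379 to 0.214 RPKM in controls and 0.282 to 2.99 RPKM in iPCKO samples. With no filter it was not called (2.04, limma adjusted p = 0.127). Mbl1 overlapped and was not called (-0.23, adjusted p = 0.429). Masp2, Fcna and Mbl2 also overlapped and did not exceed 0.209 RPKM.

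Cfp, which encodes properdin, the stabiliser of the alternative convertase made by neutrophils and other leukocytes, rose from 1.38 to 1.98 RPKM in controls to 3.08, 5.46 and 6.91 RPKM in iPCKO samples (log2 fold change 1.54, limma adjusted p = 0.00659). The C5a receptor C5ar1 rose from 0.355 to 0.803 RPKM to 1.42, 3.51 and 4.04 RPKM (2.27, adjusted p = 0.00693), but it passed the filter through iPCKO samples only, and with no filter its adjusted p was 0.0142. Itgb2, the beta chain of complement receptors on leukocytes, rose from 3.51 to 6.65 RPKM to 10.4, 17.9 and 23.6 RPKM (1.83, adjusted p = 0.00554), and its alpha chain Itgam differed by 2.09 without passing (adjusted p = 0.014). All these ranked the iPCKO samples in the order of the neutrophil markers, an order also held by C1rl, Colec12, Clu and Hc. The calls of Cfp, C5ar1 and Itgb2 held in 1, 2 and 2 of 6 fits that left out a sample, each time among them the fit without iPCKO 1.

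Clu, which encodes clusterin, a fluid-phase inhibitor of the terminal complex made by many cell types, rose from 2.18 to 2.40 RPKM in controls to 4.70, 5.61 and 8.94 RPKM (log2 fold change 1.41, limma adjusted p = 0.00292), and its call was lost without control 1 or control 3 (adjusted p up to 0.0147). The other abundant genes were not called. They were Hc, which encodes C5 (13.5 to 19.5 against 16.1 to 25.7 RPKM), Cr1l, which encodes the rodent C3 convertase regulator Crry (29.8 to 35.1 against 35.2 to 36.5 RPKM), Cd93 (21.6 to 26.7 against 23.7 to 28.5 RPKM), C1qbp, a mitochondrial protein that binds C1q in vitro (8.04 to 8.76 against 9.51 to 11.4 RPKM), and Vtn, which encodes vitronectin. Vtn stood at 43.4 to 55.5 RPKM in controls and at 102.7, 45.9 and 44.4 RPKM in iPCKO samples, where iPCKO 1 alone was high. C8a was listed at 0 in all 6 samples, and C8b, of the terminal pore, did not exceed 0.0551 RPKM.

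**Figure D4:**
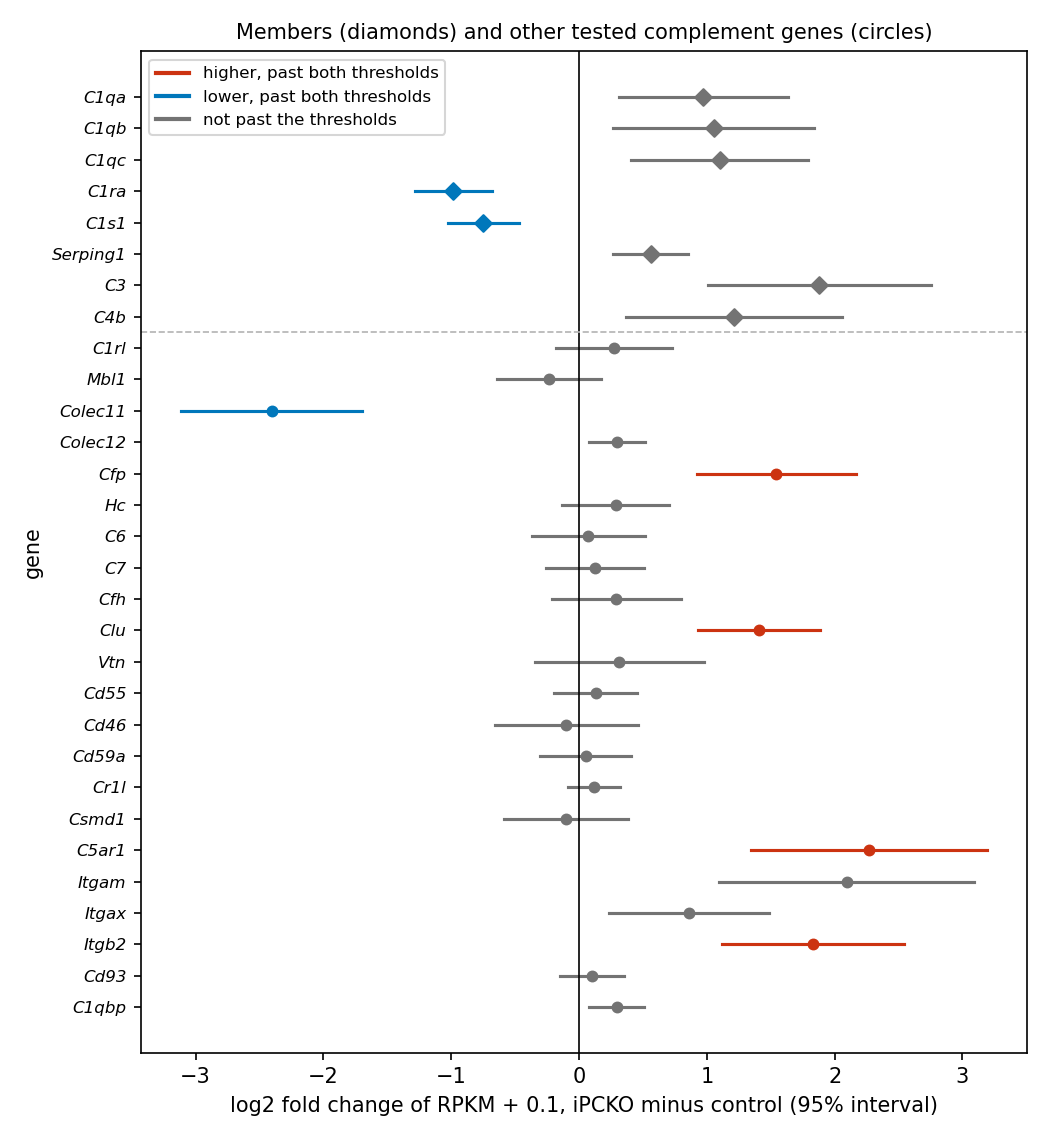
Log2 fold change of RPKM + 0.1 (iPCKO minus control, 95% interval from limma, 3 samples per group) of the 8 tested members (diamonds, above the dashed line) and the 22 other tested complement genes (circles), coloured where both thresholds were passed. C1ra, C1s1 and Colec11 were lower, Cfp, Clu, C5ar1 and Itgb2 were higher, and C3 had the largest difference among the members at 1.88 without passing.

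Genes of the cytokine and interferon responses, which induce several of the 9, were examined as a further list. Of 23 genes, 18 were tested, of which 4 rose and 1 fell, where 4.11% and 2.68% of all genes tested did, with a median log2 fold change of 0.53 against 0.00 over all genes. Il6st, which encodes gp130, the shared receptor chain of interleukin-6 family cytokines, fell from 42.7, 53.6 and 57.4 RPKM to 21.4, 21.2 and 22.2 RPKM (log2 fold change -1.23, limma adjusted p = 0.00033). Il6ra (0.98, adjusted p = 0.00432) and Tnfrsf1a (0.58, adjusted p = 0.00929), which encode receptors of interleukin-6 and tumour necrosis factor, rose, each held in 1 of 6 fits that left out a sample. So did Socs3, a feedback inhibitor of cytokine signalling (0.95, adjusted p = 0.00105), and Hp, which encodes the acute-phase protein haptoglobin (2.28, adjusted p = 0.000415), both held in 6 of 6 fits. Hp (38.7, 58.7 and 76.7 RPKM in iPCKO 1 to 3), Il6ra (2.91, 3.86 and 4.30 RPKM) and Socs3 ranked the iPCKO samples as the neutrophil markers did, and Tnfrsf1a did not. The part of leukocyte RNA in these genes was not tested.

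Irf1, an interferon-induced transcription factor, did not separate the groups. It stood at 9.79, 11.1 and 9.69 RPKM in controls and at 11.0, 21.8 and 17.1 RPKM in iPCKO samples (log2 fold change 0.65, limma adjusted p = 0.0794). Here iPCKO 1 lay among the controls and iPCKO 2 was highest, the sample in which C1q, Serping1 and Cfb were also highest. The response genes Ifit3, Irf7 and Gbp2, with group means under 10 RPKM, also overlapped between the groups. Their log2 fold changes were -0.40, -0.04 and 0.75, and none was called (limma adjusted p = 0.21, 0.927 and 0.232). Ifit3 had the lower mean in iPCKO samples, at 3.898 against 5.175 RPKM. Among other genes at 10 RPKM or more, Ifngr1, Stat3, Cebpb and Lcn2 had all iPCKO samples above all controls without passing (limma adjusted p = 0.0127 to 0.0483), and Cebpd overlapped. Lcn2 (7.14, 29.6 and 85.7 RPKM in iPCKO 1 to 3) and Stat3 also had the order of the neutrophil markers, while Ifngr1 and Cebpb did not. Of the cytokine genes on the list, Ifng was listed at 0 in all 6 samples and Il6 did not exceed 0.211 RPKM. Il1b stood at 0.4257 to 1.955 RPKM in controls and at 2.502, 6.562 and 7.541 RPKM in iPCKO 1 to 3. Its log2 fold change was 2.083, and it was not called (limma adjusted p = 0.0348). Osm, under the filter, also had all iPCKO samples above all controls, at 0.3326 to 0.6773 against 0.04466 to 0.3029 RPKM. With no filter it was not called (1.117, limma adjusted p = 0.135). Tnf overlapped and did not exceed 0.856 RPKM.

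The genes most like each of the 9 were sought among 8197 tested genes with a mean of at least 5 RPKM, by Pearson r of log2(RPKM + 0.1) over the 6 samples. With so few samples and so many candidates, high values are common, and the group difference is part of each. Serping1 was closest to Psmb8, an interferon-inducible proteasome subunit (r = 0.998), then Glg1 and Sema4b. C1s1 was closest to Lrp4 (r = 0.997), Reck and Eogt, and C1ra to Cep290 (r = 0.996), Sh3d19 and Mysm1. C3 was closest to Plekho2 (r = 0.999), BC100530, which went from a mean of 7.34 to 146.0 RPKM, and Tln2, and C4b to Capn1 (r = 0.997), Snrnp200 and Cpm. C1qa and C1qb shared their leading genes Sfr1 (r = 0.987 and 0.988) and Numa1, followed by Loxl2 and by H2-K1, a class I histocompatibility gene, respectively. C1qc was closest to Mvp (r = 0.996), Sun2 and Slc38a5, and Cfb to Slc38a5 (r = 0.992), Irf1 and Sec31a.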

How the data were processed

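Ribosome-bound RNA from 3 control and 3 Yap1,Wwtr1 iPCKO lungs was analysed. Stranded libraries of total RNA were sequenced from both ends. The authors aligned the reads with TopHat to mm10 (GRCm38), assigned them to genes with HTSeq 0.6.1 and deposited RPKM, 1 table per sample. The exon length used and the strand and multiple-mapping settings of the counting are not given in the sources used here. Division by depth and length leaves a gene's read number hidden, so depth was read from steps in low values (75.1 to 77.1% of them within 0.02 reads of a whole number) and used for read numbers only, which cover counting error only.

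The files hold RPKM, not counts, so limma 3.58.1 (R 4.3.3) was fitted to log2(RPKM + 0.1) with an intensity trend, for genes that reached 1 RPKM in 3 or more samples, with Benjamini-Hochberg adjustment over 12034 genes. The thresholds are those of the study. A fold change on this scale understates that of low genes. Means of marker lists were compared by the exact permutation test. Symbols (21375 genes) and coordinates are from GENCODE M21. Nothing says whether littermates or separate litters were used, and p-values measure the spread between these samples. The numbers did not pair the samples (same-number deviations correlated with r = 0.238, 0.092 and 0.022), so the fit has no block.

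The 9 genes and all lists were chosen with earlier results of these data known. Beside the 9 genes, the text names genes of the complement and cytokine lists that passed or reached a mean of 10 RPKM, or were absent (1 gene of the cytokine list is not reported here), the macrophage and leading other markers, and the 3 genes most like each of the 9. Neighbours and genes sharing sequence were named for their position. Colec10, Masp1, C2, C8b, Fcnb, Mbl1, Masp2, Fcna and Mbl2 were named after their values were seen. So were Ifit3, Irf7, Gbp2, Il1b, Osm and Tnf. Tables and plots used Python 3.11.15 (pandas 2.3.3, matplotlib 3.10.9), and the fit was tested on simulated data.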

Additional observations from a re-analysis of the deposited data

How the results depend on the processing

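No gene of the 9 changed direction under any alternative, and median-ratio scaling and quantile normalization moved the median of all genes by -0.01 and -0.03 (log2). Of 2 complement members past the thresholds, 8 were counted with sample weights, 5 at an adjusted p below 0.05 and 0 at a log2 fold change above 1, since those of C1ra and C1s1 are -0.98 and -0.75, and 0 to 6 with a sample left out (0 without control 3, 6 without iPCKO 1, 1 without each of control 1, control 2, iPCKO 2 and iPCKO 3). With the replicate number as a block, C3 passed (adjusted p = 0.00562, limma), giving 3 members, 8 cytokine and interferon genes in place of 5 and 922 of all genes in place of 817; the numbers were not shown to pair the samples. All genes past the thresholds were 1590 with sample weights, 1313 at 0.05, 411 above 1 and 382 to 899 with a sample left out (382 without control 3, 414 without iPCKO 2, 499 without iPCKO 3). In place of 5 other complement genes, 3 passed with no filter (Colec11, Clu and, newly, Colec10), 3 with 1 RPKM in all 6 samples, 3 without an intensity trend, and 1 to 7 with a sample left out (1 without control 1 or control 3, 2 without iPCKO 2 or iPCKO 3). The 5 cytokine and interferon genes became 3 with no filter, 11 with sample weights, 8 at 0.05, 2 above 1 and 3 to 8 with a sample left out (3 without control 2, control 3, iPCKO 2 or iPCKO 3, 8 without iPCKO 1). Taking the median over a marker list turned the difference to -0.285 for pericyte, -0.213 for fibroblast and 0.107 for hepatocyte markers, and leaving out a sample gave -0.045 to 0.078 for endothelial (-0.045 without control 1) and -0.233 to 0.198 for hepatocyte markers (0.198 without control 3, 0.075 without iPCKO 2). With 1 in place of 0.1 as the pseudocount, the difference of Cfb was 0.34 in place of 1.20, since its values lie below 1 RPKM. Apart from thresholds and filters, whose effect follows from their construction, the cause was not tested. The C1q chains and Cfb rest on few reads per library, and the shared sequence of C1ra, C4b and Cfb could not be resolved from RPKM.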
